A study of Homo sapiens with 10 samples.

Results

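The genes described here encode the heme oxygenases, the biliverdin reductases, both ferritin subunits, and the main proteins that import, export and sense cellular iron. They are the 10 rows of the count file whose gene symbol is HMOX1, HMOX2, BLVRA, BLVRB, FTH1, FTL, TFRC, SLC40A1, SLC11A2 or IREB2, out of 28380 genes in all. They were read in RPE-1, a telomerase-immortalized line of human retinal pigment epithelial cells. In complete DMEM, 5 replicates of 50000 cells received 25 µM sulforaphane (SFN) and 5 received the vehicle DMSO, each for 4 h. SFN is an electrophile that broccoli and its relatives form when their tissue is damaged, and the comparison asks which mRNAs of heme and iron handling differ after this short exposure. All libraries come from 1 cell line at 1 dose and 1 time point.

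Heme oxygenase opens the heme ring and releases iron, carbon monoxide and biliverdin, which biliverdin reductase turns into bilirubin. Free iron is stored in ferritin, a hollow shell of heavy (FTH1) and light (FTL) subunits, imported through the transferrin receptor (TFRC) and DMT1 (SLC11A2), and exported by ferroportin (SLC40A1). Iron regulatory proteins, among them IRP2 (IREB2), bind hairpins called iron-responsive elements (IREs) when iron is scarce. In a 5′ UTR such a hairpin lets them block translation, and in a 3′ UTR it lets them protect the mRNA from decay. HMOX1 is a classic target of the transcription factor NRF2, which SFN is known to activate, and is repressed by BACH1. In the eye, the retinal pigment epithelium takes up iron from the choroidal circulation and clears material shed by photoreceptors.

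The hairpins are shown because iron regulatory proteins bind such elements. The canonical GENCODE 44 transcripts of GRCh38 were searched for a C, a stem of 5 bases, the loop CAGTGN, and 5 bases that pair with the stem, with G-T pairs allowed. Each line gives 29 bases 5′ to 3′ in DNA letters, and the 6 bases in capitals are the loop.
FTH1: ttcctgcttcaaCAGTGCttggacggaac
FTL: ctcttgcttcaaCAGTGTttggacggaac
SLC40A1: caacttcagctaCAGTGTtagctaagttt
TFRC element 1: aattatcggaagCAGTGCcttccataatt
TFRC element 2: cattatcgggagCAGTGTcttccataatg
TFRC element 3: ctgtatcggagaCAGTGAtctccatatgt
TFRC element 4: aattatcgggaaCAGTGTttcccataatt
The FTH1 element lies in the 5′ UTR within exon 1, at chr11:61967574-61967602 on the minus strand. The FTL element lies in the 5′ UTR within exon 1, at chr19:48965335-48965363 on the plus strand. Of their 29 bases 26 are identical, whereas the FTH1 and SLC40A1 elements share 13. The SLC40A1 element lies in the 5′ UTR within exon 1, at chr2:189580661-189580689 on the minus strand. The 4 TFRC elements lie in the 3′ UTR within exon 19 on the minus strand, from chr3:196050979-196051007 for element 1 to chr3:196050463-196050491 for element 4. This pattern was present in a UTR of 143 of 20457 coding transcripts (0.699%) and in the 5′ UTR of 20 (0.098%). The canonical transcripts of the other 6 genes held no match to these letters. This says nothing of looser hairpins or of other transcripts of these genes, so it does not show which mRNAs the proteins can bind.

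Reads were counted per gene in the 3′-end libraries, with totals of 15689294 to 20666692 in DMSO and 12375860 to 17308706 in SFN, and all 10 genes passed the low-count filter with 13378 genes in all. Values are CPM, the share of a library's counts after TMM scaling, so they are relative levels, in which fewer cells and less RNA per cell cannot be told apart. Genes were tested with edgeR's quasi-likelihood test and Benjamini-Hochberg adjustment over all tested genes, with a threshold of 0.05 on the adjusted p, and log2 fold changes carry their standard error (SE). Nothing in the labels says that the replicates were separate cultures, so p-values measure the spread between these samples. DMSO replicate 1 stood apart from the other libraries. Its slope of log2 CPM on log2 transcript length, relative to the mean of all libraries, was -0.271, against 0.0872 to 0.148 in the other DMSO replicates and -0.183 (replicate 2) to 0.109 (replicate 5) in SFN. Of 11 retinal pigment epithelium markers, KRT8, KRT18, MITF, OTX2, BEST1 and PMEL passed the filter, and RPE65, RLBP1, LRAT, TTR and TYRP1, which mark mature cells, did not. The summed level of the list was 582 to 876 CPM in DMSO and 566 to 993 CPM in SFN. Most of it came from the keratin genes KRT8 (means of 383 CPM in DMSO and 449 in SFN) and KRT18 (196 and 236). The sum therefore says little of the other markers. BEST1 overlaps FTH1 on the opposite strand, and the use of strand in the counting is not given, so its counts may hold FTH1 reads. Macrophage and endothelial markers summed to 0 to 1.37 CPM in DMSO and 0.565 to 2.32 CPM in SFN, and the red cell list had 1 of its 8 genes in the file, at or under 0.125 CPM in every library.

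HMOX1 and FTL were higher, and HMOX2 and SLC40A1 lower, in SFN than in DMSO. Thus 2 of the 10 genes were increased, where 9.07% of all tested genes were, and 2 were decreased, where 13.9% were. HMOX1 alone rose more than 2-fold (2.94% of all genes) and SLC40A1 alone fell by more than 2-fold (5.76% of all genes). The median log2 fold change of the 10 genes was -0.04, against -0.03 over all genes tested. The SFN values of HMOX1 lay above all DMSO values, as in 8.78% of all genes, and those of HMOX2 and SLC40A1 lay below them, as in 11.1%. Leaving out DMSO replicate 1, HMOX1, FTL, FTH1 and BLVRB were increased (4 of 10, 22.5% of all genes). In the same fit HMOX2, SLC40A1, SLC11A2 and IREB2 were decreased (4 of 10, 23.5% of all genes). The slopes on transcript length left there were 0.0872 to 0.148 in DMSO and -0.183 to -0.0355 in SFN replicates 1 to 4. SFN replicate 5 was at 0.109. Effects of SFN and of the length slope therefore cannot be fully told apart without DMSO replicate 1. With quality weights for the libraries 5 genes were increased (29% of all genes) and 4 decreased (30.2%), and with the replicate number as a block 1 was increased (6.81%) and 2 were decreased (11.4%). On quantile normalized values in limma 2 were increased (9.84% of all genes) and 1 was decreased (11.5%).

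**Figure D1:**
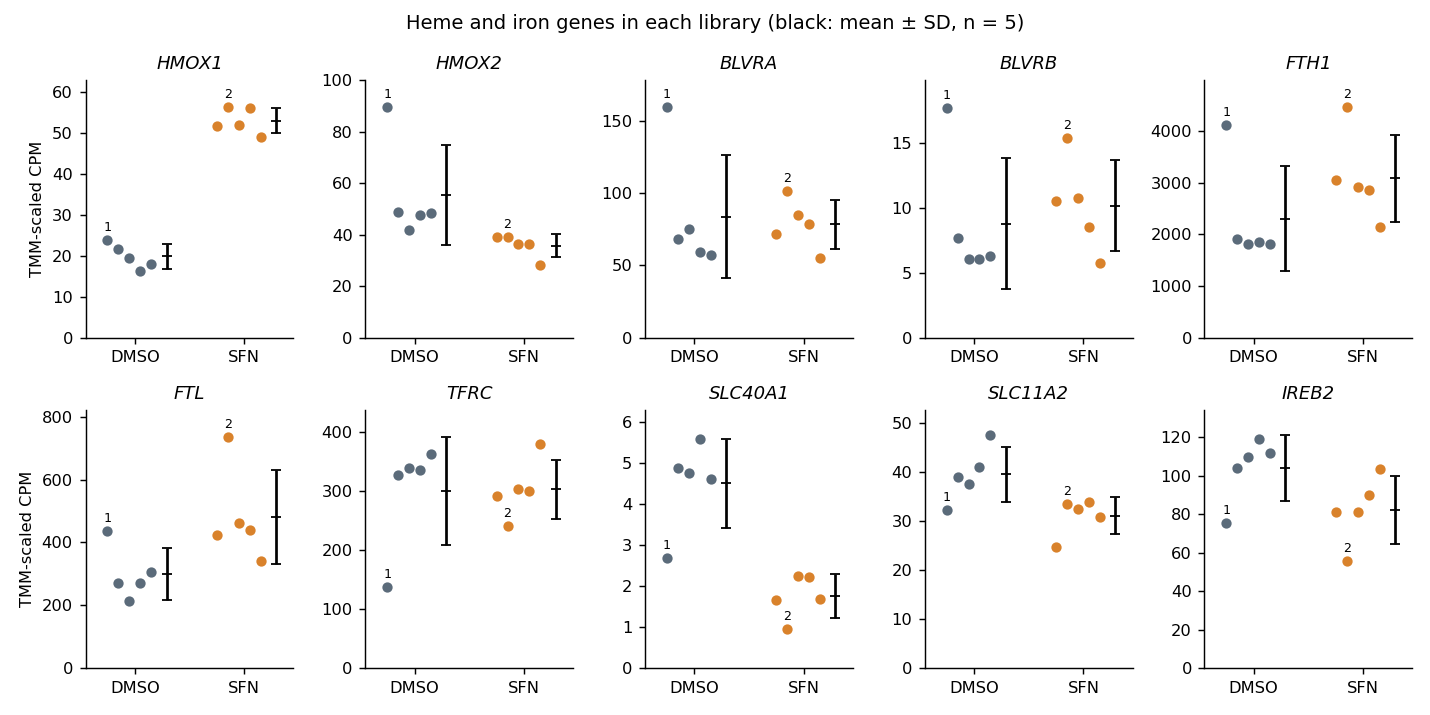
TMM-scaled CPM of each gene, 1 point per library on a linear axis from 0, with the group mean and SD (n = 5) in black. DMSO replicate 1 and SFN replicate 2 are numbered, and DMSO replicate 1 is the highest DMSO library for HMOX1, HMOX2, BLVRA, BLVRB, FTH1 and FTL and the lowest for the other 4 genes.

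HMOX1 (ENSG00000100292, chr22:35380361-35394214, plus strand) encodes the inducible heme oxygenase. Its level was 24.0, 21.6, 19.6, 16.3 and 17.9 CPM in DMSO replicates 1 to 5 and 51.7, 56.4, 52.1, 56.2 and 49.1 CPM in SFN replicates 1 to 5. Every SFN library was more than 2 times the highest DMSO library, and the SFN replicates lay close together. The fitted level was 2.67 times that in DMSO (log2 fold change of 1.42 with an SE of 0.12, adjusted p = 9.9e-06 in edgeR's quasi-likelihood test), from 271 to 474 counts in a DMSO library to 654 to 868 in an SFN library. It lay on the log2 scale between 1.35 and 1.49 when any single library was left out. HMOX1 ranked 114 of the 13378 genes by p.

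HMOX2 (ENSG00000103415, chr16:4474690-4510347, plus strand) encodes the constitutive heme oxygenase. Its locus overlaps NMRAL1 (chr16:4461691-4495763) on the opposite strand. By these positions the 3′ ends of both genes lie outside the overlap. Only reads inside it could not be told apart without strand, and sharing of reads was not tested. HMOX2 measured 89.7, 49.0, 41.9, 47.7 and 48.4 CPM in the DMSO replicates and 39.04, 39.08, 36.3, 36.5 and 28.1 CPM in the SFN replicates. Every SFN value lay below every DMSO value, with DMSO replicate 1 far above the other DMSO libraries and SFN replicate 5 below the other SFN libraries. HMOX2 fell by 0.63 on the log2 scale (SE 0.20, adjusted p = 0.042 in edgeR's quasi-likelihood test), to 0.647 of the DMSO level. The log2 fold change was -0.39 without DMSO replicate 1 (adjusted p = 0.0078 in the same test). The call was lost without DMSO replicate 2, 4 or 5 or any SFN replicate, with log2 fold changes between -0.68 and -0.55 and adjusted p-values up to 0.090.

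The heme oxygenase genes were also compared within libraries, where no scaling between libraries is needed. The count of HMOX1 divided by that of HMOX2 was 0.267, 0.441, 0.468, 0.343 and 0.371 in the DMSO replicates and 1.32, 1.44, 1.43, 1.54 and 1.75 in the SFN replicates. HMOX2 therefore had more counts than HMOX1 in every DMSO library and fewer in every SFN library. This is a ratio of 3′-end counts and not per length. The ratio was 4.02-fold higher in SFN (mean log2 ratio -1.43 ± 0.32 in DMSO and 0.58 ± 0.15 in SFN, SD, n = 5 each, two-sided exact permutation p = 0.0079, adjusted p = 0.024 over 3 ratios), and 0.0079 is the smallest p this design can give. With each library left out in turn the difference in log2 ratio was 1.89 to 2.09.

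BLVRA (ENSG00000106605, chr7:43758680-43807342, plus strand) and BLVRB (ENSG00000090013, chr19:40447765-40465764, minus strand) encode the enzymes that reduce biliverdin. BLVRA ranged from 56.9 to 159 CPM in DMSO and from 55.1 to 102 CPM in SFN. Its log2 fold change was -0.10 with a 95% interval from -0.70 to 0.51 (adjusted p = 0.85 in edgeR's quasi-likelihood test), so a moderate change in either direction was not detectable. Without DMSO replicate 1 the BLVRA value was 0.26 (adjusted p = 0.15) in the same test. BLVRB ranged from 6.04 to 17.7 CPM in DMSO and from 5.72 to 15.4 CPM in SFN, with a log2 fold change of 0.21 and a 95% interval from -0.53 to 0.96 (adjusted p = 0.71 in the same test). BLVRB without DMSO replicate 1 passed the threshold at 0.62 (adjusted p = 0.031 in the same test). The step after heme oxygenase thus had no gene past the threshold in the fit of all libraries.

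FTH1 (ENSG00000167996, chr11:61959718-61967634, minus strand) encodes the ferritin heavy chain, which oxidizes iron for storage. It overlaps BEST1 on the opposite strand, which had at most 2.41 counts per 100 FTH1 counts. By their positions the 3′ ends of both genes lie inside the overlap. Sharing or loss of reads there was not tested, and the BEST1 count does not bound it. The FTH1 level was 4119, 1917, 1815, 1852 and 1807 CPM in the DMSO replicates and 3045, 4459.7, 2908, 2854 and 2131 CPM in the SFN replicates. DMSO replicate 1 alone lay inside the SFN range, and the other 4 DMSO libraries had less than any SFN replicate. Its log2 fold change was 0.42 (SE 0.27, 95% interval -0.16 to 1.0, adjusted p = 0.30 in edgeR's quasi-likelihood test). When DMSO replicate 1 was left out, the FTH1 log2 fold change was 0.73 (adjusted p = 0.0017 in the same test), and without SFN replicate 2, the highest library, it was 0.26 (adjusted p = 0.56).

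FTL (ENSG00000087086, chr19:48965309-48966879, plus strand) encodes the ferritin light chain, which supports mineral formation in the core. It measured 436, 271, 213, 269.9 and 305 CPM in the DMSO replicates and 422, 735, 460.1, 440.5 and 339.9 CPM in the SFN replicates. The groups overlapped through DMSO replicate 1, and SFN replicate 2 was the highest library. FTL rose 1.6-fold (log2 fold change 0.68, SE 0.23, adjusted p = 0.049 in edgeR's quasi-likelihood test). The call stood without DMSO replicate 1 (log2 fold change 0.85, adjusted p = 0.0017) or SFN replicate 5 (0.78, adjusted p = 0.032) in the same test. It was lost without any other library, with log2 fold changes from 0.48 without SFN replicate 2 to 0.73 without SFN replicate 1 and adjusted p-values up to 0.11. FTH1 and FTL, whose 5′ elements differ at few bases, were then compared within libraries. The count of FTH1 divided by that of FTL was 5.93 to 9.45 in DMSO and 6.07 to 7.21 in SFN. The mean log2 ratio differed by -0.21 (two-sided exact permutation p = 0.15, adjusted p = 0.23), so no difference between the subunits was detected, and without DMSO replicate 5 it differed by -0.29 (adjusted p = 0.048 in the same exact permutation test).

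Ferritin genes have many processed copies in the genome that can take up reads. The file held 15 rows named as FTH1 copies and 3 named as FTL copies, which held 0.505% to 0.759% of the counts of the FTH1 family and 0.211% to 0.422% of those of the FTL family. The most counted copies were FTH1P10 and FTH1P8 (means of 91.8 and 40.4 counts) and FTLP3 and FTLP17 (means of 11.5 and 7.7 counts). The log2 fold changes with their counts added were 0.42 for FTH1 and 0.68 for FTL, as without them. How the authors' counting treated reads that fit several copies is not stated.

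TFRC (ENSG00000072274, chr3:196012511-196082153, minus strand) encodes the receptor that takes up transferrin-bound iron, and is the gene with 4 elements in its 3′ UTR. Its level was 137, 326, 339, 336 and 362 CPM in the DMSO replicates and 291, 240.0, 303, 299 and 379 CPM in the SFN replicates. DMSO replicate 1 was far below the other DMSO libraries, and the remaining DMSO values lay inside the SFN range. The log2 fold change was 0.01 with a 95% interval from -0.49 to 0.52 (adjusted p = 0.98 in edgeR's quasi-likelihood test), and -0.18 without DMSO replicate 1 (adjusted p = 0.20 in the same test).

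SLC40A1 (ENSG00000138449, chr2:189560590-189583758, minus strand) encodes ferroportin, the iron exporter. It measured 2.68, 4.88, 4.75, 5.60 and 4.62 CPM in the DMSO replicates and 1.67, 0.949, 2.23, 2.23 and 1.69 CPM in the SFN replicates. Every SFN library lay below every DMSO library, although DMSO replicate 1 came close to the SFN range. The fall to 0.392 of the DMSO level (log2 fold change -1.35, SE 0.26, adjusted p = 0.0029 in edgeR's quasi-likelihood test) rests on 43 to 107 counts in a DMSO library and 11 to 33 in an SFN library, so counting error is part of the spread. Leaving out each library in turn gave log2 fold changes from -1.49 to -1.20, all past the threshold. Of the 3 mRNAs with a 5′ element, FTL was thus increased, SLC40A1 was decreased, and FTH1 did not pass the threshold in the fit of all libraries. The FTL call stood in only 2 of the 10 fits that left out a library. Within libraries no difference between FTH1 and FTL was detected, so these calls do not set the 2 subunits apart.

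SLC11A2 (ENSG00000110911, chr12:50979401-51028566, minus strand) encodes the ferrous iron importer DMT1. It ranged from 32.2 to 47.6 CPM in DMSO and from 24.7 to 33.9 CPM in SFN, with a log2 fold change of -0.35 (SE 0.13, adjusted p = 0.079 in edgeR's quasi-likelihood test). IREB2 (ENSG00000136381, chr15:78437431-78501453, plus strand) encodes IRP2, an iron sensor that binds the hairpins shown above. It ranged from 75.4 to 119 CPM in DMSO and from 55.6 to 104 CPM in SFN, with a log2 fold change of -0.34 (SE 0.17, adjusted p = 0.19 in the same test). For these genes DMSO replicate 1 was the only DMSO library inside the SFN range of SLC11A2 and the lowest of IREB2. Without it the log2 fold changes were -0.42 for SLC11A2 (adjusted p = 0.0066) and -0.44 for IREB2 (adjusted p = 0.018). Both were past the threshold in the same test. With each library's length slope as a covariate, SLC11A2 was at -0.29 (adjusted p = 0.028) and IREB2 at -0.19 (adjusted p = 0.066). IREB2 did not pass the threshold in that fit of the same test.

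**Figure D2:**
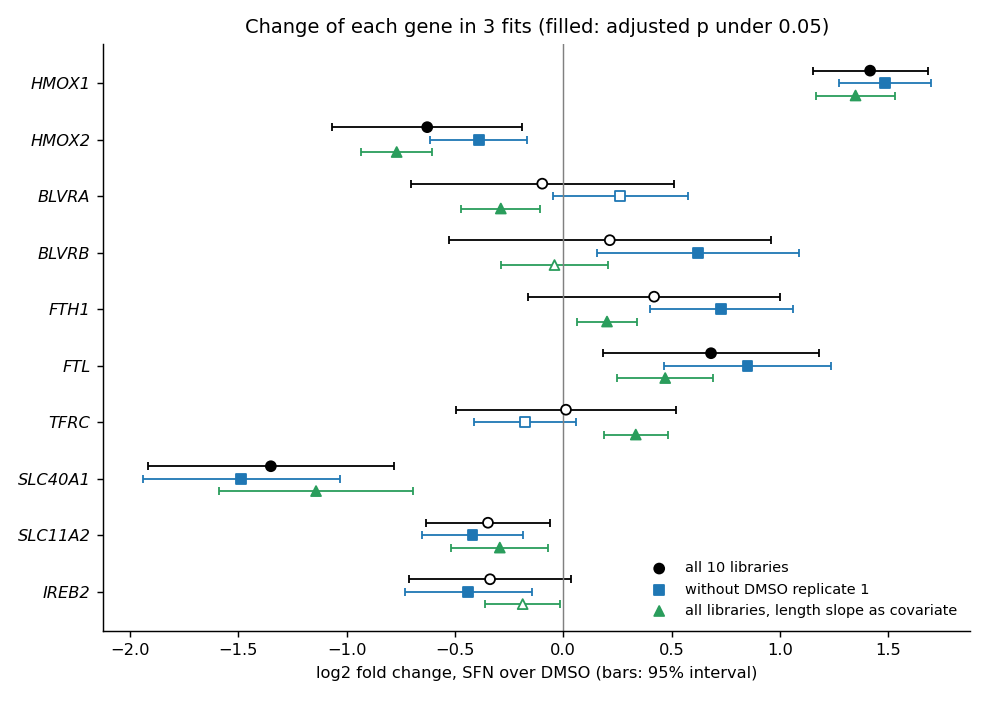
Log2 fold change of SFN over DMSO for each gene with its 95% interval, from all 10 libraries (circles), without DMSO replicate 1 (squares) and with the length slope of each library as a covariate (triangles), where filled symbols have an adjusted p under 0.05. HMOX1 stays between 1.35 and 1.49 and SLC40A1 between -1.49 and -1.14, while BLVRA, BLVRB and TFRC change sign between fits.

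The spread among replicates followed transcript length. The canonical transcripts of BLVRB, FTL, BLVRA, FTH1, HMOX1 and HMOX2 are 799 to 1673 bases long, and those of SLC40A1, SLC11A2, TFRC and IREB2 are 3330 to 6324 bases long. All 6 shorter transcripts were highest, among DMSO libraries, in DMSO replicate 1, the library with the most negative length slope, and all 4 longer ones were lowest there. In SFN replicate 2, which had the most negative slope of that group, the same 6 were highest and 3 of the 4 longer ones were lowest, SLC11A2 lying inside. With each library's slope as a covariate, an alternative chosen after seeing the data, the log2 fold change was 1.35 for HMOX1, -0.77 for HMOX2, 0.47 for FTL and -1.14 for SLC40A1, each with an adjusted p under 0.05. In that fit FTH1 was 0.20 (adjusted p = 0.016) and TFRC 0.33 (adjusted p = 6.4e-04), both increased, while BLVRA was -0.29 (adjusted p = 0.010) and SLC11A2 -0.29 (adjusted p = 0.028), both decreased, in the same test. Thus 4 genes were increased (24.6% of all genes) and 4 were decreased (25.6% of all genes). With the covariate BLVRB was at -0.04 (adjusted p = 0.80) and IREB2 at -0.19 (adjusted p = 0.066) in the same test. Neither passed the threshold. The directions of TFRC, BLVRA and BLVRB were opposite to those without DMSO replicate 1, so no direction is given for these genes.

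**Figure D3:**
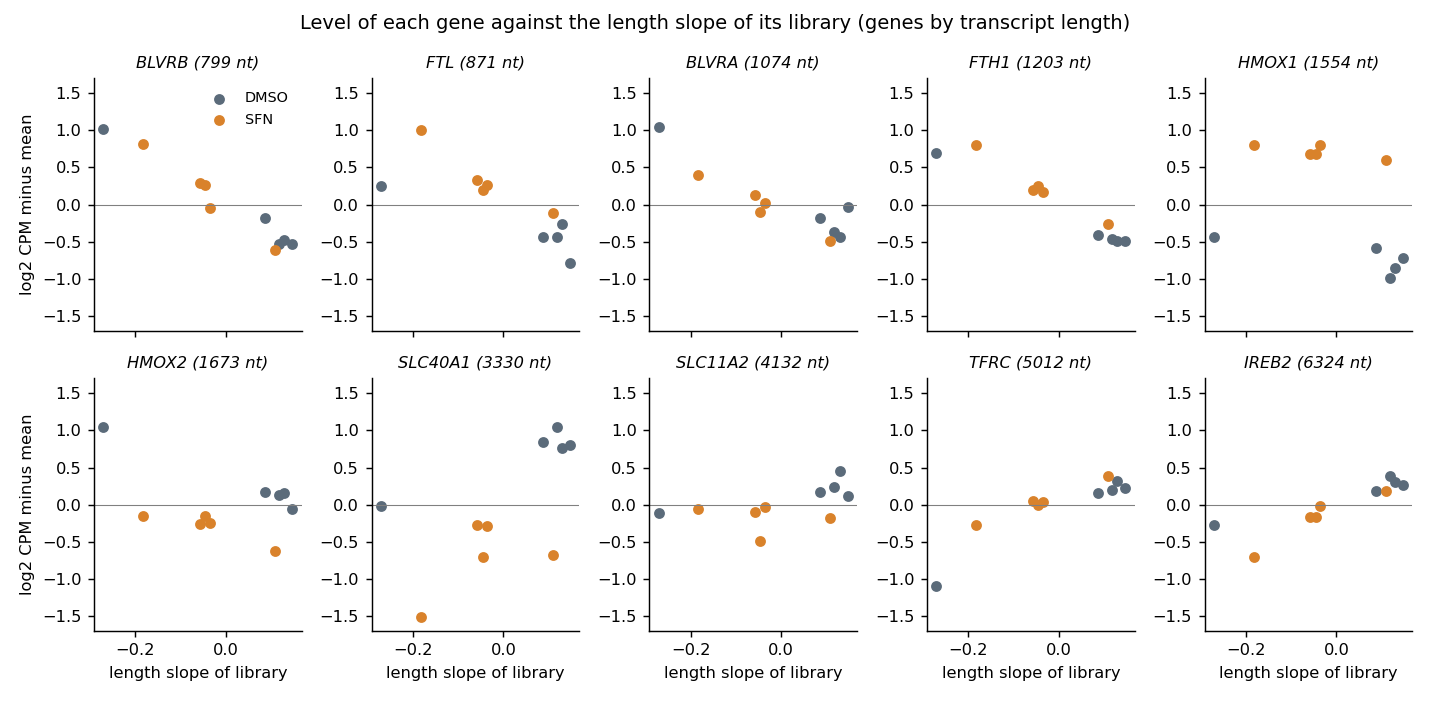
Log2 CPM of each gene minus its mean over the 10 libraries, against the length slope of the library (change in log2 CPM for each doubling of transcript length), with 1 point per library and genes ordered by transcript length in nucleotides. FTH1 and BLVRB points descend and TFRC points ascend along the slope in both groups, while the HMOX1 groups stay apart at every slope.

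Storage and uptake were also set against each other within libraries. The count of FTH1 divided by that of TFRC was 30.1 in DMSO replicate 1 and 4.99 to 5.88 in the other DMSO libraries. In SFN it was 10.4, 18.6, 9.61, 9.53 and 5.62 in replicates 1 to 5. The mean log2 ratio was 2.93 ± 1.11 in DMSO and 3.32 ± 0.61 in SFN (SD, n = 5 each), a difference of 0.39 (two-sided exact permutation p = 0.43, adjusted p = 0.43 over 3 ratios). Without DMSO replicate 1 it was 0.88 (adjusted p = 0.036 in the same exact permutation test). FTH1 and TFRC differ in transcript length, and the ratio was largest in the libraries with the most negative length slope.

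**Figure D4:**
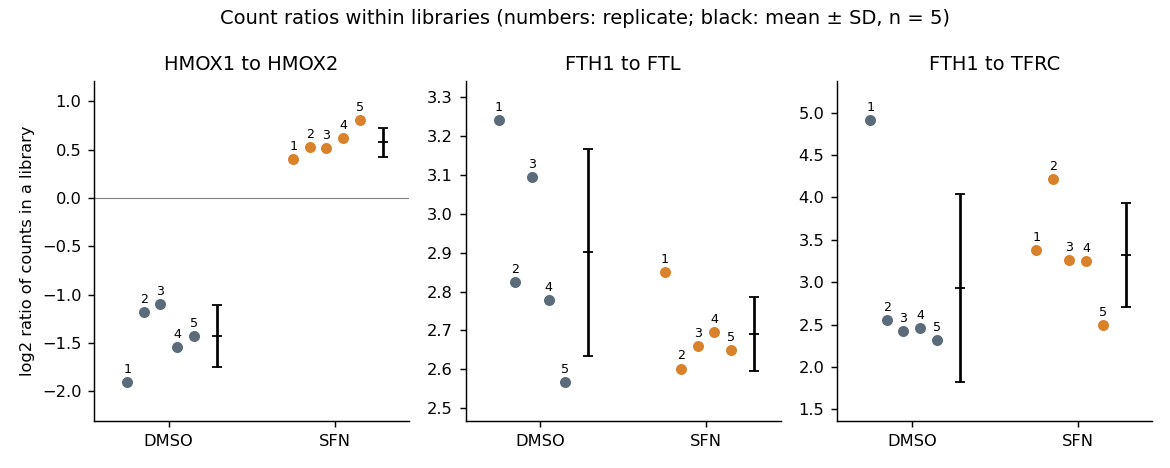
Log2 ratio of the counts of 2 genes in each library, numbered by replicate, with the group mean and SD (n = 5) in black. The HMOX1 to HMOX2 ratio is below 0 in every DMSO library and above 0 in every SFN library, whereas the groups overlap for FTH1 to FTL and for FTH1 to TFRC.

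The other genes of heme and iron handling were read from hand-written lists. Their counts stand against 9.07% of all genes increased and 13.9% decreased in the fit of all libraries, 22.5% and 23.5% without DMSO replicate 1, and 24.6% and 25.6% with the length slope as a covariate. All 8 enzymes of heme synthesis from ALAS1 to FECH were tested, and 0 passed the threshold in edgeR's quasi-likelihood test (0 increased and 1 decreased at an unadjusted p under 0.05). By adjusted p, 1 was increased and 2 were decreased without DMSO replicate 1, and 0 and 2 with the length slope as a covariate. Their log2 fold changes ran from -0.65 to 0.15, with a median of -0.16. Of 10 genes of heme transport and binding, 1 was increased and 2 were decreased, and in both other fits 3 were increased and 2 decreased. FLVCR2, a transporter related to the heme exporter FLVCR1, had a log2 fold change of -1.52 (SE 0.41, adjusted p = 0.021), from 11 to 41 counts in a DMSO library to 2 to 10 in an SFN library. ABCB6, a porphyrin transporter, had -1.31 (SE 0.30, adjusted p = 0.0077), and HEBP2, a heme-binding protein, had 0.54 (SE 0.15, adjusted p = 0.023) in the same test. Without DMSO replicate 2 FLVCR2 was not past the threshold, and neither was HEBP2 without DMSO replicate 2, 3 or 5 (HEBP2 log2 fold changes from 0.45 to 0.67 over all 10 leave-outs).

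Among the partners of iron uptake, storage and sensing, FBXL5 fell and PCBP2 rose. FBXL5, the iron-sensing ubiquitin ligase subunit that marks IRP2 for degradation, went from 82.6 ± 7.19 to 55.4 ± 6.56 CPM (SD, n = 5 each, log2 fold change -0.58, adjusted p = 0.0031 in edgeR's quasi-likelihood test). PCBP2, an iron chaperone that also binds RNA, went from 81.3 ± 5.29 to 117 ± 17.2 CPM (SD, n = 5 each, log2 fold change 0.53, adjusted p = 0.0059 in the same test). In this list of 9 tested genes 2 were increased and 1 was decreased, ZFP36, an mRNA decay factor, being the other increase (log2 fold change 0.63, adjusted p = 0.049 in the same test). Without DMSO replicate 1 the list had 2 increased and 2 decreased genes, and with the length slope as a covariate 5 and 1. The ZFP36 call stood only without DMSO replicate 1 and was lost without any other library (log2 fold changes from 0.48 to 0.72). Of 9 tested genes of iron uptake and reduction, CYBRD1, a ferric reductase, was increased (log2 fold change 0.34, adjusted p = 0.048 in the same test). The other fits had 2 increased and 1 decreased without DMSO replicate 1 and 3 and 0 with the covariate. The CYBRD1 call stood without DMSO replicate 1 or 5 and was lost without any other library (log2 fold changes from 0.27 to 0.40 over all 10).

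For mitochondrial iron import and iron-sulfur cluster assembly, 1 of 19 tested genes was increased and 1 was decreased, with a median log2 fold change of 0.01. HSPA9, the mitochondrial chaperone that helps to hand over clusters, had 0.42 (SE 0.09, adjusted p = 0.0062), and IBA57, a late assembly factor, had -0.75 (SE 0.23, adjusted p = 0.033) in edgeR's quasi-likelihood test. The IBA57 call was lost without DMSO replicate 3 or SFN replicate 1, 2, 4 or 5, at log2 fold changes from -0.86 to -0.57 over all leave-outs. Leaving out DMSO replicate 1, 6 genes of this list were increased and 1 was decreased (22.5% and 23.5% of all genes), and with the length slope as a covariate 2 were increased and 6 decreased (24.6% and 25.6%).

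The next list held 7 genes of transcription factors that act on HMOX1 and KEAP1, the adaptor that marks NRF2 for degradation. Of these 8 genes, 6 factor genes were increased and 0 were decreased in edgeR's quasi-likelihood test (6 and 0 at an unadjusted p under 0.05), with a median log2 fold change of 0.90 against -0.03 for all genes. NFE2L2, which encodes NRF2, went from 103 ± 14.8 to 166 ± 6.48 CPM (SD, n = 5 each, log2 fold change 0.69, adjusted p = 8.9e-04 in the same test). BACH1, the heme-binding repressor of HMOX1, went from 45.9 ± 9.97 to 101 ± 19.3 CPM (SD, n = 5 each, log2 fold change 1.13, adjusted p = 8.2e-04 in the same test). The small MAF genes MAFG and MAFF, whose products pair with NRF2 or BACH1 on DNA, had log2 fold changes of 1.40 and 1.12, and ATF4, a factor of the amino acid response, had 1.5. MAFK, at 0.49, completed the 6 and is named because only 1 was left. These calls held without each library in turn. KEAP1 had a log2 fold change of -0.21 (adjusted p = 0.42 in the same test). It was -0.045 without DMSO replicate 1 (adjusted p = 0.74) and was decreased only with the length slope as a covariate (log2 fold change -0.34, adjusted p = 0.0014) among these 3 fits in the same test. The mRNAs of the activator NRF2 and of the repressor BACH1 were thus higher in the same libraries as HMOX1.

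Of 9 other NRF2 target genes, 3 were increased and 0 were decreased in edgeR's quasi-likelihood test (4 and 0 at an unadjusted p under 0.05), and the median log2 fold change was 0.47. The increased genes were ABCC2, an export pump for conjugates (log2 fold change 1.63, from 4 to 17 counts in a DMSO library to 15 to 32 in an SFN library), SLC7A11, the cystine importer (1.61), and GCLM, a subunit of glutathione synthesis (1.30). HMOX1, at 1.42, lay inside the range of these 3 genes. It lay above the genes of the list that did not pass the threshold, which ran from -0.30 to 0.61. The count was 6 and 0 when DMSO replicate 1 was left out (22.5% and 23.5% of all genes) and 7 and 0 with the length slope as a covariate (24.6% and 25.6%).

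For each of the 4 genes past the threshold, the genes with the closest profile over the 10 libraries were found by the root mean square difference of log2 CPM, each centred on its own mean. For HMOX1 these were THOC6 (0.078), MAFG (0.11) and UBALD1 (0.14), among 10038 other genes with a mean of at least 5 CPM. For HMOX2 they were PTX3 (0.068), GMNN (0.099) and TUBB6 (0.10), for FTL they were NDUFA4 (0.081), MYL12A (0.11) and SSR2 (0.12), and for SLC40A1 they were TRIM35 (0.17), ABTB2 (0.18) and ZNF708 (0.20). The points share libraries, treatment and length slope, so these values describe likeness in this experiment only.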

How the data were processed

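The authors aligned and counted Lexogen QuantSeq 3′ reads with the Bluebee pipeline, and the submitters' processing notes name FastQC, STAR, featureCounts and edgeR on GRCh38. The deposited table holds raw counts of 28380 genes with Ensembl identifiers, in 1 column per replicate. The counting settings, strand, molecular identifiers and annotation release are not given in the sources used here. Genes were filtered with filterByExpr, scaled by TMM and tested with glmQLFit and glmQLFTest of edgeR 4.0.16 in R 4.3.3 with Benjamini-Hochberg adjustment. SEs were derived from the log2 fold change and its F statistic. Count ratios within libraries (pseudocount 0.5) were compared by exact permutation in Python 3.11.15. The study's limma model on weighted, quantile normalized values with repeated measures was not run, and limma 3.58.1 on quantile normalized values was an alternative, as were DESeq2 1.42.0, other scaling, no filter, quality weights, a replicate block and leaving out each library. Positions, transcript lengths (known for 13324 of 13378 tested genes) and sequences are from GENCODE 44. The genes, lists and tests were chosen with earlier results of these data known, and 1 gene of a list is not reported here. Named genes are the 10 genes, NFE2L2, BACH1 and, of each list, at most the 4 largest changes past the threshold.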

Additional observations from a re-analysis of the deposited data

Results flagged for a closer look

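The values of 5 replicates were examined in 66 groups (each named gene, ratio and the length slope in DMSO and in SFN) for a replicate that stood apart from the rest of its group, measured as its distance from the closest other replicate as a share of the group's whole range, with a limit of 0.71. A replicate stood apart in 14 groups. Chance would give about 3 (1 in 20) in independent groups, but these groups share the same 10 libraries, so the numbers are not a test. In 10 of the 14 groups the library was DMSO replicate 1. Its length slope stood apart (gap 0.855), as did its level of FTH1 (0.952, 4119 CPM against 1807 to 1917 in the other DMSO replicates), BLVRB (0.857), HMOX2 (0.851), TFRC (0.841, 136.8 against 326 to 362 CPM), BLVRA (0.822), GCLM (0.859), ATF4 (0.80) and MAFG (0.727), and the FTH1 to TFRC log2 ratio (0.909). DMSO replicate 5 stood apart for FLVCR2 (0.744, 0.651 against 1.56 to 1.87 CPM) and OTX2 (0.733). SFN replicate 5 stood apart for HMOX2 (0.744, 28.1 against 36.3 to 39.1 CPM), and SFN replicate 2 for HEBP2 (0.834, 148.5 against 106.5 to 113 CPM). HMOX1, FTL, SLC40A1, SLC11A2 and IREB2 had no replicate apart by this measure in either group.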

How the results depend on the processing

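HMOX1 and SLC40A1 kept their direction and their call in all 18 alternatives. The numbers of increased and decreased genes, 2 and 2 here, were 5 and 4 with quality weights (29% and 30.2% of all genes), 4 and 4 with the length slope as a covariate, 2 and 1 with limma-voom on quantile normalized values (HMOX2 -0.58, adjusted p = 0.060), and 1 and 2 with the replicate block. Leaving out each library gave 1 to 4 increased and 1 to 4 decreased genes, where, beside DMSO replicate 1, 6.66% to 8.39% and 10.8% to 13.2% of all genes were. Log2 fold changes in these fits ran from -0.21 (without DMSO replicate 5) to 0.26 for BLVRA and from -0.18 to 0.088 (without DMSO replicate 5) for TFRC. BLVRA reversed with quality weights (0.28), without DMSO replicate 1 (0.26) and without SFN replicate 5 (0.0077), and BLVRB reversed with the length slope as a covariate (-0.040). TFRC also reversed with library size only (-0.10), quantile normalized values (-0.050), no low-count filter (-0.0039), quality weights (-0.17), without DMSO replicate 1 (-0.18) and without SFN replicate 5 (-0.08). The cause was not tested. The correlation of same-numbered deviations from the group means ran from -0.27 to 0.48. The same-numbered SFN library was the closest match for DMSO replicate 5 but not for DMSO replicates 1 to 4. These values cannot show whether the replicates were paired. With the replicate block FTL was 0.67 (adjusted p = 0.073), and the HMOX1 to HMOX2 log2 ratio difference stayed 2.01 with an adjusted exact permutation p of 0.19, which 5 pairs cannot bring under 0.05. Leaving out libraries gave FTH1 to FTL differences of -0.29 to -0.12, FTH1 to TFRC differences of 0.16 to 0.88 and HMOX1 to HMOX2 differences of 1.89 to 2.09. Over all genes 3076 passed the threshold, against 6251 without DMSO replicate 1, 6723 with the length slope and 7915 with quality weights. With library size only, 819 rose and 2163 fell, against 1214 and 1862. Low counts limit the SLC40A1, FLVCR2, ABCB6 and ABCC2 values.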

Other observations

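BEST1, a chloride channel gene used as a marker of retinal pigment epithelium, lies on the opposite strand to FTH1 and overlaps it over 5798 bases (chr11:61950063-61965515). It had 97 to 672 counts in the DMSO libraries and 275 to 1244 in the SFN libraries, which is 0.299 to 1.02 counts per 100 FTH1 counts in DMSO and 0.861 to 2.41 in SFN. The highest DMSO value was in replicate 1 and the highest SFN value in replicate 2, the libraries with the highest FTH1 levels of their groups. BEST1 had a log2 fold change of 1.17 (adjusted p = 0.16 in edgeR's quasi-likelihood test) 1.68 without DMSO replicate 1 (adjusted p = 0.0096 in the same test), and 0.67 with the length slope as a covariate (adjusted p = 0.049 in the same test). Because the use of strand in the counting is not given in the sources used here, reads of BEST1 and FTH1 cannot be told apart in the overlap. By their positions the overlap holds the 3′ ends of both genes.

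HMOX2 overlaps NMRAL1, a gene on the opposite strand, over 21074 bases. NMRAL1 had a log2 fold change of -0.16 (adjusted p = 0.48 in edgeR's quasi-likelihood test), -0.06 without DMSO replicate 1, and -0.27 with the length slope as a covariate (adjusted p = 0.0093 in the same test), where HMOX2 was at -0.77. Both overlaps were looked at after the values were seen.

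Of 6 tested markers of retinal pigment epithelium, 0 were increased and 2, MITF and OTX2, were decreased in SFN (9.07% and 13.9% of all genes), with a median log2 fold change of 0.18. MITF, the pigment cell factor, went from 50.8 ± 4.95 to 23.4 ± 2.78 CPM and OTX2, a homeobox factor, from 14.0 ± 2.14 to 9.01 ± 0.286 CPM (SD, n = 5 each, adjusted p = 0.0029 for OTX2 in edgeR's quasi-likelihood test), while KRT8 and KRT18 did not pass the threshold (log2 fold changes of 0.23 and 0.27). Without DMSO replicate 1 the list had 2 increased genes, BEST1 and KRT8 (log2 fold change 0.37 for KRT8, adjusted p = 0.016 in the same test), and 2 decreased (22.5% and 23.5% of all genes). Reads of BEST1 cannot be told apart from those of FTH1 in their overlap, so the BEST1 value may hold FTH1 reads, which was not tested.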
